A study of Sus scrofa with 14 samples.

Results

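SLPI, LTF, PIGR and REG3G encode secreted or secretion-linked proteins of mucosal defence, and their mRNA was followed in mucosal scrapings of the pig small intestine. SLPI (secretory leukocyte protease inhibitor) blocks neutrophil elastase and has antibacterial activity. LTF (lactotransferrin) binds iron and withholds it from bacteria. PIGR (polymeric immunoglobulin receptor) carries dimeric IgA through the epithelial cell into the lumen, and REG3G is a lectin secreted by enterocytes and Paneth cells that kills Gram-positive bacteria. Together such proteins form a chemical layer at the surface of the epithelium, and the genes of several of them respond to microbes and to cytokines such as IL-22 and IL-17.

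The 4 genes, of 3020 genes with a symbol on the array, were chosen by their ratios of onion over saline digest, which were known from earlier work on the same arrays. Their ratios in the onion comparisons are therefore given as a description, without a test. The members were 11 of 43603 probes, found through the RefSeq accession of the probe: 7 probes of SLPI, 2 of LTF, 1 of PIGR and 1 of REG3G. The second LTF probe was at the floor of measurement on 14 of 14 arrays and was not used further. For SLPI the probe with the highest mean signal stood for the gene.

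In the pig SISP model (small intestinal segment perfusion) a segment with intact blood supply and nerves is perfused in an anaesthetised animal. Male piglets of 5 weeks and 8.2 kg carried pairs of adjacent segments at 31-58% of the length of the small intestine, each filled with 20 ml and perfused for 6 h. Pigs 1, 2 and 4 gave 1 segment with saline digest (Sd) and 1 with yellow onion digest (YOd), and pigs 5, 6, 7 and 8 gave 1 segment with Sd and 1 with white onion digest (WOd), so 14 arrays were available with 1 array per segment. Sd went through the same digestion without onion, but was diluted in another fluid and to another extent than the onion digests, so that onion and dilution cannot be told apart. The onions were given to different pigs, and pig 3 was not analysed here.

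Levels are log2 values of the signal relative to the 75th percentile of all probes on that array, so a level of 0 equals that percentile. Between 50.5% and 70.6% of the spots of an array were well above background, and 546 to 964 spots were saturated. The number of arrays limits the precision. Enterocyte markers were present, as 6 of 6 markers with a named probe (among them FABP2 and APOA4) were above the floor on all arrays. Smooth muscle markers (ACTA2, DES and CNN1), T cell markers (6 of 7 named) and macrophage markers (3 of 3 named) were above the floor on all arrays as well, as were the named markers of Paneth cells (2), goblet cells (2), enteroendocrine cells (4) and proliferating crypt cells (2). Of plasma and B cell markers, 0 of 3 named were above the floor on all arrays. A change in the number of cells of a type and a change of mRNA per cell cannot be told apart in such scrapings. The 14 arrays lay on 5 slides. The Sd arrays of pigs 2 and 7 were on another slide than the onion array of the same pig, whereas both arrays of the other 5 pigs shared a slide. The Sd arrays of pigs 2 and 7 were also scanned on another day than all other arrays.

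The levels of SLPI differed more between the pigs than they did between the digests. Over the 7 Sd segments the SLPI level ranged from 3.13 (pig 5) to 6.88 (pig 7), with a median of 5.60 and an SD of 1.49, which is a 13.4-fold range. Pigs 4, 6, 7 and 8 were above 5.5 and pigs 1, 2 and 5 below 4.3. The REG3G level ranged from 3.04 (pig 2) to 6.48 (pig 7), with a median of 4.48 and an SD of 1.28, a 10.8-fold range. Both genes had a wide spread beside the other genes. Of 2246 genes above the floor on all Sd arrays, with a median SD of 0.39, only 22 had a larger SD than SLPI and 38 a larger SD than REG3G. The PIGR level ranged from 1.66 (pig 6) to 4.03 (pig 4), with a median of 2.86 and an SD of 0.80, and 201 genes had a larger SD. The LTF level ranged from -1.23 (pig 5) to 0.44 (pig 8), with a median of -0.18 and an SD of 0.52, and 605 genes had a larger SD. Much of the LTF spread came from pig 5, since the SD was 0.32 without it. REG3G was saturated in the Sd segment of pig 4, and SLPI in that of pig 7, so that the ranges may be understated.

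**Figure D1:**
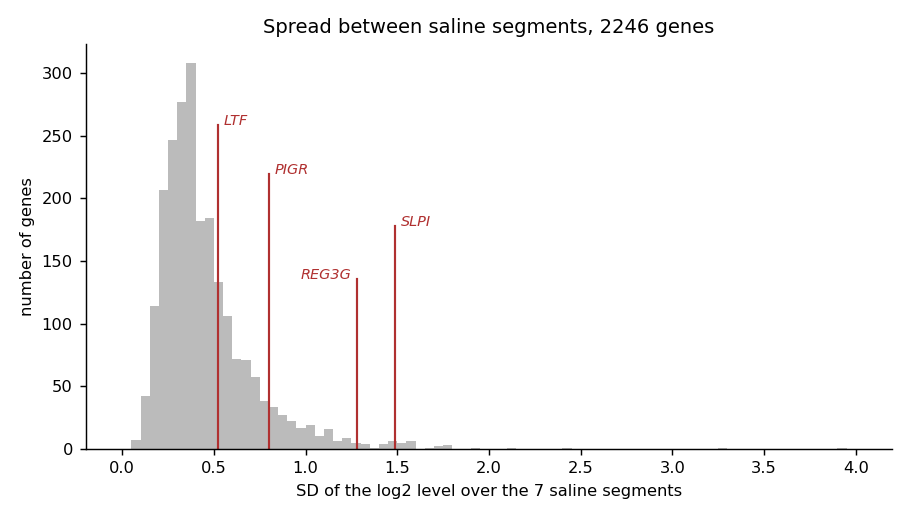
Histogram of the SD of the log2 level over the 7 saline segments for 2246 genes, as the number of genes per bin of 0.05. Red lines mark the 4 genes, and SLPI (1.49) and REG3G (1.28) lie in the right tail whereas LTF (0.52) lies within the bulk.

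Pigs with a high SLPI level in the Sd segment also tended to have a high level in the onion segment. The correlation over the 7 pigs between the Sd level and the onion segment level is given as a description, without a test, since both levels enter the ratios that served for the choice of genes. For SLPI r was 0.91 and Spearman's rho 0.86, and r was 0.91 without the 2 pigs farthest from the median. For PIGR r was 0.81 and rho 0.86, and r was 0.71 without the 2 farthest pigs. For REG3G r was 0.81 and rho 0.64, and r was 0.61 without pigs 4 and 7. LTF had the lowest values, with r of 0.51 and rho of 0.29.

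Over the Sd segments SLPI and REG3G tended to be high in the same pigs, although this did not pass the adjustment for 6 pairs of genes. Their correlation was r = 0.80 (n = 7, exact permutation p = 0.048, adjusted p = 0.16), rho was 0.86 (exact permutation p = 0.024, adjusted p = 0.14), and r was 0.76 without pigs 2 and 5. For SLPI and LTF r was 0.71 (n = 7, exact permutation p = 0.054, adjusted p = 0.16) and rho 0.75 (exact permutation p = 0.066, adjusted p = 0.20), but r was 0.36 without pigs 2 and 5. The other 4 pairs had r between -0.23 and 0.19 with an adjusted p of 0.85 in the exact permutation test. For LTF and PIGR r was -0.09 (rho 0.18) but 0.90 without pigs 5 and 8. The Sd levels also enter the ratios that served for the choice of genes. The p-values of these correlations carry that limit, and nothing is concluded from them.

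Since the onions were tested in different pigs, the Sd segments of both sets of pigs were compared. This contrast does not use the onion segments, but the Sd levels enter the ratios that served for the choice of genes. Its p-values for the 4 genes carry that limit. None of the 4 genes passed the thresholds (raw p of 0.05 and 1.5-fold), which 1.10% of 2447 genes passed. SLPI was higher in the Sd segments of pigs 5 to 8 than in those of pigs 1, 2 and 4 by 0.74 (SE 0.91), and REG3G by 0.97 (SE 0.75). The differences for PIGR and LTF were -0.61 (SE 0.50) and -0.23 (SE 0.38), and limma gave an adjusted p of 0.9996 for all 4.

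**Figure D2:**
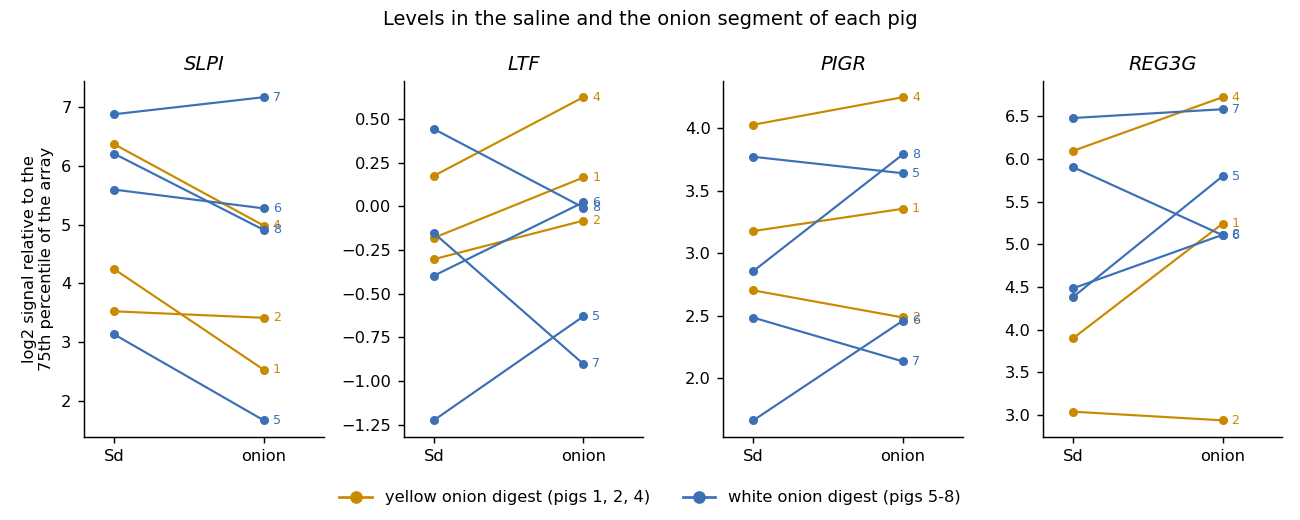
Log2 level of each gene (vertical axis, relative to the 75th percentile of the array) in the Sd segment and the onion segment of each pig, with 1 line per pig and the pig number at the right. SLPI lines run downwards in pigs 1, 4, 5, 6 and 8 and are nearly flat in pig 2, REG3G lines run upwards most in pigs 1 and 5, and the lines of LTF and PIGR cross. SLPI in pig 7 and REG3G in pig 4 were saturated in both segments.

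SLPI was lower with onion digest than with Sd by all of its probes in 5 of 7 pigs (pigs 1, 4, 5, 6 and 8). In the pigs with YOd, the level in the Sd and the YOd segment was 4.24 and 2.53 in pig 1, 3.53 and 3.42 in pig 2, and 6.37 and 4.99 in pig 4. Hence the YOd segments of pigs 1 and 4 were below the Sd segment of the same pig, and that of pig 2 was close to it. In the pigs with WOd, the Sd and the WOd level was 3.13 and 1.67 in pig 5, 5.60 and 5.28 in pig 6, 6.88 and 7.17 in pig 7, and 6.21 and 4.91 in pig 8. Pigs 5 and 8 were clearly lower with WOd, pig 6 slightly lower and pig 7 was not lower. As groups the levels overlapped for both onions, since the SLPI differences between pigs were larger than those between segments.

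The mean log2 ratio of SLPI was -1.07 ± 0.85 (SD, n = 3 pigs) in YOd/Sd, which is 2.10-fold lower, and -0.70 ± 0.83 (SD, n = 4 pigs) in WOd/Sd, which is 1.62-fold lower. The WOd/Sd mean includes pig 7, whose spots were saturated on both arrays, and by the probe saturated on no array it was -0.71. Over the 7 pigs it was -0.86 ± 0.79 (SD). SLPI was the one gene of the 4 past a raw p of 0.05 and 1.5-fold in YOd/Sd, thresholds that 4.53% of 2449 genes passed, and none of the 4 passed in WOd/Sd, where 1.19% of 2429 genes did. As the contrast served for the choice of genes, nothing is read from these counts. Single pigs weighed heavily. Without pig 2 the YOd/Sd mean was -1.55 and without pig 1 it was -0.75. Without pig 7 the WOd/Sd mean was -1.03 and without pig 5 it was -0.44. In the 5 pigs whose arrays shared a slide, SLPI was lower in 5 of 5, with a mean of -1.24. The SLPI ratios nearest to 0 were those of pigs 2, 6 and 7, and pigs 2 and 7 were those with arrays on different slides. The arrays of pigs 2 and 7 also differed in the scan day. The parts of slide and scan day were not tested.

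The 7 probes of SLPI gave the same picture. Over the 14 arrays the probes correlated with each other with r from 0.986 to 0.999 (21 pairs, as a description, since they share the arrays and the gene). The log2 ratio ranged from -2.14 to -1.71 over the 7 probes in pig 1, from -1.61 to -1.06 in pig 4, from -1.70 to -1.36 in pig 5 and from -1.49 to -1.22 in pig 8. Hence all probes were over 2-fold lower in these 4 pigs. In pig 6 the 7 probes ranged from -0.48 to -0.30, and all were below 0. In pig 2 they ranged from -0.22 to 0.13 with 3 of 7 below 0, so that no direction can be given there. In pig 7 they ranged from -0.004 to 0.52. The probe that stands for SLPI was saturated on both arrays of pig 7, which leaves its ratio there without meaning. The only probe that was saturated on no array gave 0.47 in that pig. Each other probe was saturated there at least in the WOd segment. In pig 4 the ratio of -1.06 came from a probe with a saturated Sd spot, so that this decrease is a bound.

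**Figure D3:**
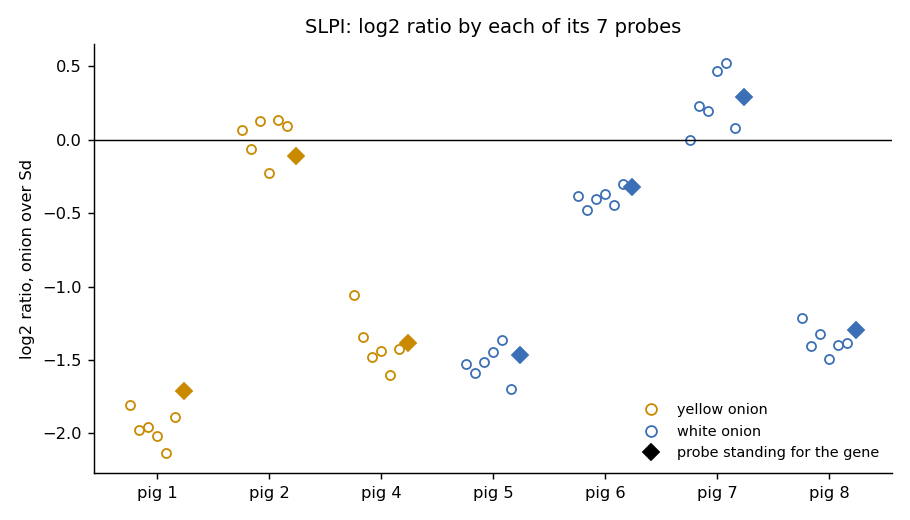
Log2 ratio of onion over Sd in each pig by each of the 7 SLPI probes (diamond: the probe that stands for the gene; open circles: the other probes). The probes of a pig lie close together, far below 0 in pigs 1, 4, 5 and 8, just below 0 in pig 6, around 0 in pig 2 and at or above 0 in pig 7. In pig 7 every probe except the one saturated on no array had a saturated WOd spot.

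REG3G was more than 1.5-fold higher with onion digest in 3 (pigs 1, 5 and 8) of the 6 pigs whose spots were not both saturated. Pig 7 is among these 6, but its WOd spot was saturated (signal 53298) and its Sd spot was close to it (52300). Its ratio of 0.10 is therefore not read as a rise. In the pigs with YOd the Sd and the YOd level was 3.90 and 5.24 in pig 1, 3.04 and 2.94 in pig 2, and 6.09 and 6.72 in pig 4, where both spots were saturated. Pig 1 was clearly higher with YOd, pig 2 was not, and the saturated pair of pig 4 gives no ratio. In the pigs with WOd the Sd and the WOd level was 4.38 and 5.80 in pig 5, 5.90 and 5.11 in pig 6, 6.48 and 6.58 in pig 7 (WOd spot saturated), and 4.48 and 5.11 in pig 8. Pigs 5 and 8 were higher and pig 6 was lower with WOd. The mean log2 ratio of REG3G, with saturated spots at their value, was 0.62 ± 0.72 (SD, n = 3 pigs) in YOd/Sd and 0.34 ± 0.93 (SD, n = 4 pigs) in WOd/Sd. Both SDs exceeded the mean. The YOd/Sd mean was 0.26 without pig 1 and 0.99 without pig 2, and the WOd/Sd mean was -0.02 without pig 5 and 0.72 without pig 6.

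In pigs 1, 5 and 8 SLPI was more than 1.5-fold lower and REG3G more than 1.5-fold higher. SLPI was also more than 1.5-fold lower in pig 4, where REG3G was saturated in both segments and gave no ratio. In the other 3 pigs the SLPI and REG3G ratios were -0.11 and -0.10 in pig 2, -0.32 and -0.80 in pig 6, and 0.29 and 0.10 in pig 7. Only in pig 6 can a shared sign be read. The SLPI probes of pig 2 differed in sign, and pig 7 had saturated spots for both genes. The largest REG3G ratios, 1.34 in pig 1 and 1.42 in pig 5, stood beside SLPI ratios of -1.71 and -1.46. The REG3G ratio was 0.63 in pig 8, beside -1.30 for SLPI. Both ratios of a pig come from the same pair of arrays, and both genes were chosen for their ratios, so this is a description. In pigs 1 and 5 the summed level of neutrophil markers (S100A8, S100A9 and S100A12, 3 of 9 listed, the others not analysed here) was also higher with onion, by log2 ratios of 1.12 and 0.76, against -0.10 to 0.26 in the other pigs. That summed level ranged from 0.22 to 2.29 in the Sd segments, from 1.86 to 2.89 with YOd and from 0.41 to 2.00 with WOd, and its part in the REG3G ratio was not tested. The summed level of the proliferating crypt cell markers TOP2A and CCNB1 (2 of 6 listed) had log2 ratios of -0.15, -1.20, -0.43 and -0.90 in pigs 1, 4, 5 and 8. In these pigs SLPI was more than 1.5-fold lower. The crypt marker ratios were -0.10, -0.30 and 0.69 in pigs 2, 6 and 7. Their summed level ranged from 2.38 to 3.52 in the Sd segments, from 2.24 to 3.42 with YOd and from 2.25 to 3.56 with WOd. Enteroendocrine markers (CHGA, CHGB, GCG and CCK, 4 of 6 listed) had ratios of 1.30 in pig 1 and 0.74 in pig 4. They had ratios of 0.07 and -0.19 in pigs 5 and 8, and of 0.01, 0.44 and 0.31 in pigs 2, 6 and 7. Their summed level ranged from 2.91 to 4.40 in the Sd segments, from 3.87 to 5.05 with YOd and from 3.21 to 4.47 with WOd. Enterocyte markers had ratios from -0.12 (pig 5) to 0.61 (pig 4), and Paneth cell markers from -0.12 (pig 5) to 0.53 (pig 4). In pig 1 these were 0.16 and 0.15. Goblet cell markers ranged from -0.62 (pig 1) to 0.73 (pig 7), and T cell markers from -0.46 (pig 8) to 0.66 (pig 4). Macrophage markers ranged from -0.40 (pig 8) to 0.39 (pig 4), and smooth muscle markers from -0.75 (pig 7) to 0.26 (pig 1). The part of any of these cells in the ratios was not tested.

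PIGR was close to its Sd level with YOd. The Sd and the YOd level was 3.18 and 3.36 in pig 1, 2.70 and 2.49 in pig 2, and 4.03 and 4.25 in pig 4, a mean log2 ratio of 0.06 ± 0.24 (SD, n = 3 pigs). With WOd the Sd and the WOd level was 3.77 and 3.64 in pig 5, 1.66 and 2.46 in pig 6, 2.49 and 2.14 in pig 7, and 2.86 and 3.79 in pig 8. Pigs 6 and 8 were higher by 1.74-fold and 1.91-fold, and pigs 5 and 7 were slightly lower. The mean log2 ratio was 0.31 ± 0.65 (SD, n = 4 pigs), 0.11 without pig 8 and 0.53 without pig 7. The order of the pigs by PIGR differed from that by SLPI. Pig 6 held the lowest PIGR level of the Sd segments, yet its SLPI level was the median one, and pig 5 held the lowest SLPI level but the next to highest PIGR level.

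LTF was slightly higher with YOd in 3 of 3 pigs. The Sd and the YOd level was -0.18 and 0.16 in pig 1, -0.30 and -0.08 in pig 2, and 0.17 and 0.62 in pig 4, with a mean log2 ratio of 0.34 ± 0.11 (SD, n = 3 pigs), or 1.26-fold. Over all genes the median log2 fold change in YOd/Sd was 0.14 with this scaling and -0.16 without scaling between the arrays, and the LTF mean was then 0.03. With WOd the Sd and the WOd level was -1.23 and -0.63 in pig 5, -0.40 and 0.02 in pig 6, -0.15 and -0.90 in pig 7, and 0.44 and -0.01 in pig 8. Pigs 5 and 6 were higher and pigs 7 and 8 lower, and the mean log2 ratio was -0.05 ± 0.66 (SD, n = 4 pigs). It was -0.26 without pig 5 and 0.19 without pig 7.

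**Figure D4:**
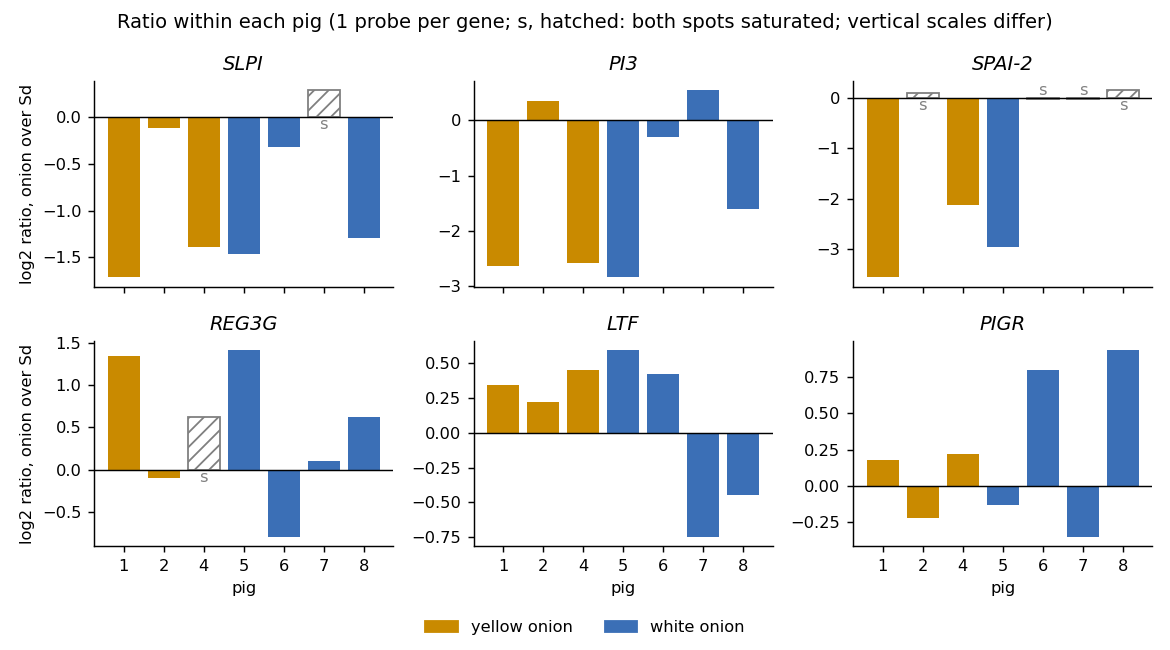
Log2 ratio of onion over Sd within each pig for SLPI, PI3, SPAI-2, REG3G, LTF and PIGR (bars from 0, vertical scales differ between panels). Hatched bars marked s are ratios of 2 saturated spots and carry no information (SLPI in pig 7, SPAI-2 in pigs 2, 6, 7 and 8, REG3G in pig 4). Bars of SLPI and PI3 are far below 0 in pigs 1, 4, 5 and 8, those of SPAI-2 in pigs 1, 4 and 5, and those of REG3G are above 0.5 in pigs 1, 5 and 8.

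PI3 and SPAI-2 lie near SLPI in the reference genome, with other genes between. They encode proteins with the same type of inhibitory domain as SLPI (the WAP domain). Both were lower in pigs in which SLPI was lower: PI3 in pigs 1, 4, 5 and 8, and SPAI-2 in pigs 1, 4 and 5. By the probes with a usable WOd spot SPAI-2 was lower in pig 8 as well. PI3 (elafin) inhibits neutrophil elastase, like SLPI, and SPAI-2 is a pig protein named for its inhibition of the sodium-potassium ATPase. PI3 was on the list of secreted protease inhibitors, whereas SPAI-2 and the neighbours below were chosen after their values were seen. With YOd, pig 1 had a PI3 log2 ratio of -2.64, pig 2 one of 0.34 and pig 4 one of -2.58. With WOd, pigs 5 and 8 had ratios of -2.83 and -1.60, while pigs 6 and 7 had ratios of -0.31 and 0.53. Thus PI3 was more than 1.5-fold lower in the 4 pigs in which SLPI was more than 1.5-fold lower. This was so in 0 of the other 3, among them pig 6, in which SLPI was slightly lower. The PI3 level ranged from -1.58 to 4.35 over the Sd segments (SD 2.15), and no PI3 spot was saturated.

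The SPAI-2 log2 ratio was -3.57 in pig 1 and -2.96 in pig 5. In pig 4 it was -2.13 with the Sd spot saturated, so that the decrease is a bound, and -2.50 and -2.52 by the other SPAI-2 probes, which were not saturated there. By those other probes it was 0.23 and 0.12 in pig 2 and 0.09 and 0.17 in pig 6. In pig 8 they gave -0.40 and -0.76 with a saturated Sd spot, so that these decreases are bounds too, and in pig 7 all 3 probes were saturated on both arrays. Within 15 genes on either side of SLPI, 8 genes had a named probe, and 7 of them were above the floor on all arrays. The other 5 of these (TOMM34, SDC4, DBNDD2, PTI and WFDC2) had no ratio below -0.40 in pigs 1, 4, 5 and 8, a value reached by SDC4 in pig 8. WFDC2, which also has WAP domains, ranged from -0.58 to 0.33 over the 7 pigs. As pig WAP-domain genes are related in sequence, a probe may bind mRNA of more than 1 of them, and this was not tested.

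The genes whose levels were most like those of SLPI over the 14 arrays, of 2182 genes above the floor everywhere, were PC (pyruvate carboxylase, r = 0.82), ITIH1 (r = 0.81) and ARPC2 (r = 0.79), while PI3 had r = 0.79. The 14 arrays hold 2 segments of each pig, so these values mix differences between pigs with those between the segments of a pig. Over the Sd segments alone, r with SLPI was 0.72 for PC, 0.58 for ITIH1 and 0.59 for ARPC2. Between the onion over Sd ratios of the 7 pigs, r with SLPI was 0.74, 0.85 and 0.49. These values are a description. PC had a range of only 1.16 to 1.87 over the Sd segments, and its mean log2 ratio was -0.04 for YOd/Sd and 0.03 for WOd/Sd. ITIH1, a member of the inter-alpha-trypsin inhibitor heavy chains, had a mean ratio of -0.74 in YOd/Sd and -0.01 in WOd/Sd. For REG3G the most alike were HYAL1 (a hyaluronidase, r = 0.82), PPARG (a nuclear receptor, r = 0.76) and MTRF1 (r = 0.72). For PIGR they were PIGU (r = 0.90), NOC3L (r = 0.87) and NIP7 (r = 0.86), and for LTF LOC641352, TACO1 and SDHB (r = 0.86 for each).

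Lists of genes of mucosal defence (6 lists) were set beside the 4 genes, of which 96 of 171 listed genes had a named probe. In YOd/Sd 86 of them were tested and 5 passed the thresholds, a share near the 4.53% of all genes, and their median log2 fold change was 0.14, equal to the 0.14 of all genes. The lowest adjusted p was 0.386 in limma, so none passed after adjustment. Of the secreted protease inhibitors, PI3 fell in YOd/Sd (log2 fold change -1.63, SE 0.56, lower in 2 of 3 pigs) and the other 9 tested did not pass. The list's median was 0.03. Of 31 antibacterial proteins, ITLN2 (intelectin 2, a lectin of the mucosa) fell by 0.63 on the log2 scale (SE 0.16, lower in 3 of 3 pigs), and the list's median was 0.13. The 2 with the highest mean level, FCN2 and LGALS4, were at 0.31 (SE 0.15) and 0.32 (SE 0.16) and did not pass. Their Sd levels, 6.53 to 7.59 and 6.41 to 7.54, reached those at which SLPI and REG3G spots were saturated. Saturation of the FCN2 and LGALS4 spots was not examined, so these ratios may not follow the mRNA.

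Of 11 neutrophil genes, MMP9 (a matrix metalloprotease of neutrophil granules) rose by 0.73 (SE 0.25) and S100A9 (a subunit of calprotectin) by 0.67 (SE 0.27) in YOd/Sd, both higher in 3 of 3 pigs, and FCGR3A, at 0.50 (SE 0.15), did not reach 1.5-fold. Of 8 genes of immunoglobulin secretion, CCR10 (a homing receptor of IgA plasma cells) rose by 0.75 (SE 0.16). All 8 had a log2 fold change above 0, with a median of 0.27, beside a median of 0.14 over all genes. These rises depended on the scaling. Without scaling between the arrays CCR10 was at 0.44, MMP9 at 0.42 and S100A9 at 0.36, all under 1.5-fold. PI3 and ITLN2 remained lower, at -1.875 and -0.94. XBP1 and FCGRT, at 0.36 (SE 0.15) and 0.31 (SE 0.16), did not pass. None of the 6 mucus and goblet cell genes passed, with MUC13 at 0.27 (SE 0.14) and KLF4 at 0.09 (SE 0.17), and neither did any of the 20 cytokine genes and inducers, with NFKBIA at 0.04 (SE 0.14). CSTB and SPINK4, the protease inhibitors with the highest mean level, were at 0.33 (SE 0.16) and -0.06 (SE 0.15). The limit given for FCN2 and LGALS4 also holds for CSTB, FCGRT and MUC13, whose lowest Sd levels were 6.46, 6.60 and 6.68. It may hold for XBP1, NFKBIA and SPINK4 too, whose highest Sd levels were 6.97, 7.21 and 6.64. The count of 5 was 14 without pig 2 and 1 without pig 1. PI3, ITLN2, MMP9 and S100A9 did not pass without pig 1, nor without pig 4.

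In WOd/Sd 0 of 84 list genes tested passed the thresholds of limma, which 1.19% of all genes passed, and 2 had an unadjusted p under 0.05, which are named here after their values were seen. They were MMP9, with a log2 fold change of 0.52 (SE 0.15, higher in 4 of 4 pigs), and SPDEF, a transcription factor of goblet cells, with 0.48 (SE 0.19). The lowest adjusted p was 0.999. PI3 was at -1.05 (SE 0.50) and ITLN2 at -0.24 (SE 0.22). The median of the lists was 0.08 beside 0.05 for all genes. Without pig 7 the number of list genes past the thresholds was 5, and without pig 5 it was 2.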

How the data were processed

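Mucosal scrapings of 14 pig jejunum segments (7 pigs) were measured on 1-colour Agilent arrays. Each array's file, as deposited, gives a background-subtracted intensity per spot from Feature Extraction 10.7.3.1. The authors also deposited log2 values of their own, for which the labels name RMA, a method for Affymetrix arrays. How these Agilent arrays were normalized is not given in the sources used here. After removal of outlier spots (5 to 462 per array), replicate spots were averaged. Signals were scaled to each array's 75th percentile, raised to the pooled 40th percentile (log2 -4.43) where lower, and taken to log2. Saturated spots were kept. Probes were named through RefSeq accessions and the Sscrofa11.1 gene table, used for names and gene order only, and a gene was represented by its brightest probe on average. Fits in limma 3.58.1 (R 4.3.3) had a term for the pig, since both arrays come from 1 animal (r of their deviations 0.517 to 0.745). They were tested on simulated data. Correlations between genes used exact permutation over pairings (scipy 1.17.1). The samples of a group are different animals.

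The genes named were the 4 members, the 3 genes most alike to each, and in each list the genes past the thresholds and the 2 with the highest mean. One gene that this rule names is not reported here. The members, lists and rules were chosen with earlier results of these data known. The alternatives covered normalization, background, floor, probe choice, filter, the authors' log2 values, pig and slide blocks and each pig left out. Alternatives with pigs 2 and 7 left out, an unsaturated SLPI probe, or without saturated REG3G pigs were added after seeing the data. Marker lists were enterocyte, Paneth, goblet, plasma and B, neutrophil, T, macrophage, smooth muscle, enteroendocrine and crypt cells.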

Additional observations from a re-analysis of the deposited data

Results flagged for a closer look

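The effect of YOd on CCR10 was above that of WOd by 1.00 on the log2 scale (limma interaction, SE 0.39, adjusted p = 0.852). CCR10 was higher in 3 of 3 pigs with YOd and in 1 of 4 with WOd. The difference passed the raw threshold and not the adjusted one. Over all genes 88 of 2497 passed the raw p and 1.5-fold thresholds for this difference, and CCR10 was the 1 of 86 list genes that did. None of the 4 defence genes held a sample far from the others in the 20 groups tested for one.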

How the results depend on the processing

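The direction of the SLPI and REG3G means held under the other normalizations, background correction, floor, probe choice and the authors' values, and REG3G in WOd/Sd turned only without pig 5. Without scaling between arrays LTF YOd/Sd was 0.030, PIGR YOd/Sd -0.25 and the LTF spread 0.82. The LTF spread was 0.32 to 0.57 when a pig was left out. The ratios rest on 3 or 4 pigs, and saturated spots limit SLPI in pig 7 and REG3G in pigs 4 and 7.

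The counts of genes past the thresholds moved more. In YOd/Sd 88 genes were higher and 23 lower, whereas without scaling between arrays 7 were higher and 95 lower. In YOd/Sd, against 111 genes, there were 63 with quantile normalization, 65 with normexp background, 7 with the authors' values, 20 without the filter on dim genes, 1303 over all probes, 20 with no replicate block, 325 with the slide as a block and 327 without pigs 2 and 7. In WOd/Sd, against 29, there were 12 with normexp, 62 with no floor, 11 with the authors' values, 17 without the filter, 327 over all probes, 10 with no replicate block, 87 with the slide as a block and 87 without pigs 2 and 7. Leaving out a pig gave 56 to 327 in YOd/Sd and 44 to 87 in WOd/Sd. Between the Sd segments, against 27, there were 43 without scaling, 48 with no floor, 15 with the authors' values, 15 without the filter, 285 over all probes, 72 without pigs 2 and 7, and 22 to 64 with a pig left out.

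Of the list genes in YOd/Sd, against 5, there were 2 with quantile normalization, 3 with normexp, 3 with no floor, 2 with the authors' values, 2 without the filter, 1 with no replicate block, 14 with the slide as a block and 14 without pigs 2 and 7, and 1 to 14 with a pig left out. In WOd/Sd, against 0, there was 1 with normexp, 1 with the mean of the probes of a gene, 5 with the slide as a block and 5 without pigs 2 and 7, and 2 to 5 with a pig left out. The block of pigs is part of the design, and the fit without it lost calls as given above.

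Between the segments of a pig, r for PIGR was 0.75 with quantile normalization and 0.77 with the authors' values, and r for LTF was 0.75 without scaling. With a pig left out r was 0.86 to 0.95 for SLPI, 0.70 to 0.88 for PIGR and 0.64 to 0.89 for REG3G. Over the Sd segments, r of SLPI and PIGR was 0.13 without scaling (-0.59 to 0.056 with a pig left out), of LTF and PIGR 0.34 (-0.39 to 0.57) and of PIGR and REG3G 0.10 (-0.53 to 0.15). The causes were not tested.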
